A study of Mus musculus with 145 samples.

Results

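The 8 genes of fibroblast growth factor (FGF) signalling described here were followed through the conversion of mouse spermatogonial stem cells (SSCs) into pluripotent cells: the ligands Fgf4, Fgf8, Fgf15 and Fgf18 and the receptors Fgfr1, Fgfr2, Fgfr3 and Fgfr4. They were chosen by name, and all 8 were found among the 28692 genes of the count files. The study cultured SSCs in one medium until colonies with an active Oct4-EGFP reporter arose, sequenced single cells on the way, and sorted them into 18 clusters by their transcriptomes. Clusters SSC1 to SSC4 and RPG1 to RPG4 (RPG, reprogramming) made up the branch that reached pluripotency, and 10 clusters named Fibroblast, Early-pluripotency, Meiotic and Neural made up branches that did not. A second set of cells was treated with 5 chemicals or with the solvent DMSO, and established lines were added for reference.

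All groups had the same genetic background, a cross of C57BL/6 females with DBA males (DBA/2 in the study's methods). Per the study's methods the C57BL/6 parents of the SSCs carried an Oct4-EGFP transgene, in which the Oct4 promoter drives the green fluorescent protein, or an EGFP transgene. The SSCs were derived from male pups in the first week after birth. The original condition was the SSC medium without added chemicals, which holds EGF, basic FGF, GDNF and ESGRO (leukaemia inhibitory factor), on feeder cells of mouse embryonic fibroblasts whose division had been stopped with mitomycin C. Libraries of this condition were labelled by day, from day 0 to day 27. The 5C group received SGC707, vitamin C, epigallocatechin gallate, Daphnetin and TUDCA, and its control received DMSO. The lines gPSC-1 (germline-derived pluripotent stem cells, at passages 1 and 15) and mES (embryonic stem cells) grew on feeders in a medium that holds a MEK inhibitor, so that all reprogramming cells were exposed to basic FGF while the lines were grown with 1 arm of FGF signalling blocked. Single cells were taken with a mouth pipette from picked colonies, and cells of 1 library share that picking.

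FGF ligands are secreted proteins that bind receptor tyrosine kinases on the cell surface together with heparan sulphate, and the bound receptors pass the signal through adaptor proteins to RAS, RAF, MEK and ERK. In early mouse embryos and pluripotent cells Fgf4 is the main ligand, is activated by Oct4 and Sox2, and acts through Fgfr1 and Fgfr2, while Fgf5, Fgf8 and Fgf15 mark later states of the epiblast, gastrulating embryo and neural tissue. SSCs in culture depend on GDNF and on FGF supplied from outside.

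The original condition comprised 46 libraries with 4339 annotated cells and 15975410 to 34609591 UMIs (unique molecular identifiers, 1 for each captured RNA molecule) in a library. The 3 line libraries held 10833720 to 14807169 UMIs, the 8 samples with 5C 5881566 to 10724925 and the 5 samples with DMSO 3889964 to 8062911. UMIs were summed for each cluster and library with at least 5 cells, and a level is given as CPM, the UMIs of the gene divided by all UMIs of that sum and scaled to a total of 1000000. Of SSC1-4 (clusters SSC1 to SSC4 together) 36 libraries gave such a sum, of RPG1 7, of RPG2 3, of RPG3 8 and of RPG4 2. The RPG2 libraries all belonged to batch B2 and the RPG4 libraries to batch B1, so that RPG2 and RPG4 were each seen in 1 batch. A list of 6 pluripotency genes together reached 2095 to 2358 CPM in RPG2, 1805 to 2271 CPM in RPG3 and 945 to 1165 CPM in RPG4. The ranges of RPG2 and RPG3 overlapped. SSC1-4 held 63.9 to 397 CPM and RPG1 172 to 449 CPM, which overlapped too. The study named its clusters with genes that included Oct4, Nanog and Sox2, which are on this list. These sums thus describe the labels and are no independent check of them. Early-pluripotency 1 (114 to 227 CPM) and Early-pluripotency 2 (214 CPM) lay within the range of SSC1-4, and neural and meiotic markers were not examined. A list of 7 fibroblast genes, which would mark feeder cells, summed to 13 to 151 CPM in SSC1-4 and to 9.65 to 39.8 CPM in RPG3.

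Fgf4 lies on chromosome 7 of the mm10 genome (GRCm38), on the forward strand. Its promoter is shown because Fgf4 had the largest fold change of the 8 members in RPG3 against SSC1-4. The 250 bases before the RefSeq start, chr7:144861136-144861385, read as follows, with matches to the GC box GGGCGG and to the TATA box TATATA in capitals.
Fgf4 promoter: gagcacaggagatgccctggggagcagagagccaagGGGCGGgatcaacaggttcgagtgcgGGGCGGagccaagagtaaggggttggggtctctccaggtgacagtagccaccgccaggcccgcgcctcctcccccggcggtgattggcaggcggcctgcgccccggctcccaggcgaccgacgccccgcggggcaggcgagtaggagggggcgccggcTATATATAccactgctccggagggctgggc
Searched on both strands, the GC box occurred in 32.7% and the TATA box in 5.25% of 32851 RefSeq mouse promoters of the same kind, and the 2 overlapping TATA matches began 30 and 28 bases before the start. Promoters of 5 of the 8 members were in that table. The textbook enhancer of Fgf4 lies at the far end of the gene, where Sox2 and Oct4 bind side by side. A Sox site (CTTTGTT) and an octamer (ATGCTAAT), both in capitals, stood 3 bases apart in exon 3, within the 3′ UTR of transcript Fgf4-201, at chr7:144864394-144864411 on the forward strand, 3008 bases after the start.
Fgf4 site: CTTTGTTtggATGCTAAT
The octamer occurred in 0.828% and the Sox site in 5.03% of the promoters, and neither in the promoters of the 5 members that were in the table. Whether any factor bound these letters was not measured here.

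Counted over all members, RPG1 differed from SSC1-4 in 2 of 8 genes, both higher, where 4.55% of 19129 genes tested passed, 2.65% higher and 1.91% lower (edgeR's quasi-likelihood test, Benjamini-Hochberg adjusted p below 0.05 over all genes). RPG2 was higher in 4 of 8 and lower in none, against 39.3% of all genes called, 19.2% higher and 20.1% lower. RPG3 was higher in 3 and lower in 1, against 58.7% (27% higher, 31.7% lower), and RPG4 was higher in 3 and lower in 2, against 30.5% (14.4% higher, 16% lower). From RPG1 to RPG2, 4 of 8 rose, with 30.7% of all genes called (14.4% higher, 16.3% lower). From RPG2 to RPG3, 1 rose and 2 fell, with 7.29% called (3.83% higher, 3.46% lower). From RPG3 to RPG4, 1 rose and 1 fell, with 10.1% called (4.55% higher, 5.58% lower). These counts of members, 2 to 5 of 8, were not tested against the shares of all genes. With the library as a block the count fell to 0 in RPG1, where Fgf15 was not tested, and to 2 in RPG2 against SSC1-4. Median log2 fold changes of the 8 members, in the order RPG1 to RPG4, were 0.61, 2.06, 0.16 and 1.32 against SSC1-4, beside −0.03, −0.43, −0.19 and −0.43 over all genes. The study drew the clusters from the same transcriptomes, so these p-values set the size of a difference against the spread between libraries and are no independent test that the clusters differ.

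In the original condition Fgf4 rose along the successful branch up to RPG3 and was low again in RPG4, unlike in the RPG4 sums of the cells with DMSO, which held 89.2 and 34.8 CPM. Those DMSO sums held 11 cells of a predicted class. Their 6 pluripotency genes summed to 1724 and 1910 CPM, against 945 to 1165 CPM in RPG4 of the original condition. In SSC1-4 the Fgf4 level was 0.31 ± 0.75 CPM (SD, n = 36 libraries), with a median of 0, and 22 libraries held no Fgf4 UMI. In RPG1 the 7 libraries held between 2.35 and 12.7 CPM with a median of 5.30. RPG2 held 43.9, 25.6 and 42.9 CPM in its 3 libraries. RPG3 held between 99.5 and 216 CPM in 8 libraries, with a mean of 141 ± 39.9 (SD). RPG4 held only 6.75 and 7.05 CPM. The RPG2 and RPG3 libraries overlapped neither with each other nor with those of RPG1, RPG4 or SSC1-4, while the RPG4 values lay within the range of RPG1.
Against SSC1-4 the log2 fold change of Fgf4 was 4.71 ± 0.57 (SE) in RPG1 and 7.41 ± 0.62 in RPG2, then 9.37 ± 0.54 in RPG3, and back to 4.81 ± 0.94 in RPG4, with edgeR adjusted p-values of 6.4e-08, 1.7e-14, 2.8e-21 and 6.1e-05. The rise from RPG1 to RPG2 was 2.7 ± 0.89 (adjusted p = 0.017), but it did not pass with DESeq2 (2.69, adjusted p = 0.17), with batch as a covariate (1.98, adjusted p = 0.11), within batch B2 (1.82, adjusted p = 0.055) or without day 14 replicate 6 of RPG2 (2.51, adjusted p = 0.059). The step from RPG2 to RPG3 was 1.96 ± 1.03 and did not pass (adjusted p = 0.26). The fall from RPG3 to RPG4 was −4.56 ± 1.49 (adjusted p = 0.040), and leaving out any of 6 libraries, both RPG4 libraries among them, ended the call at a similar size (−4.45 to −4.57, adjusted p from 0.0502 to 0.265). So did DESeq2 (−4.46, adjusted p = 0.081), sums of at least 10 cells (−4.44, adjusted p = 0.21) and batch B1 alone (−4.45, adjusted p = 0.065).

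**Figure D1:**
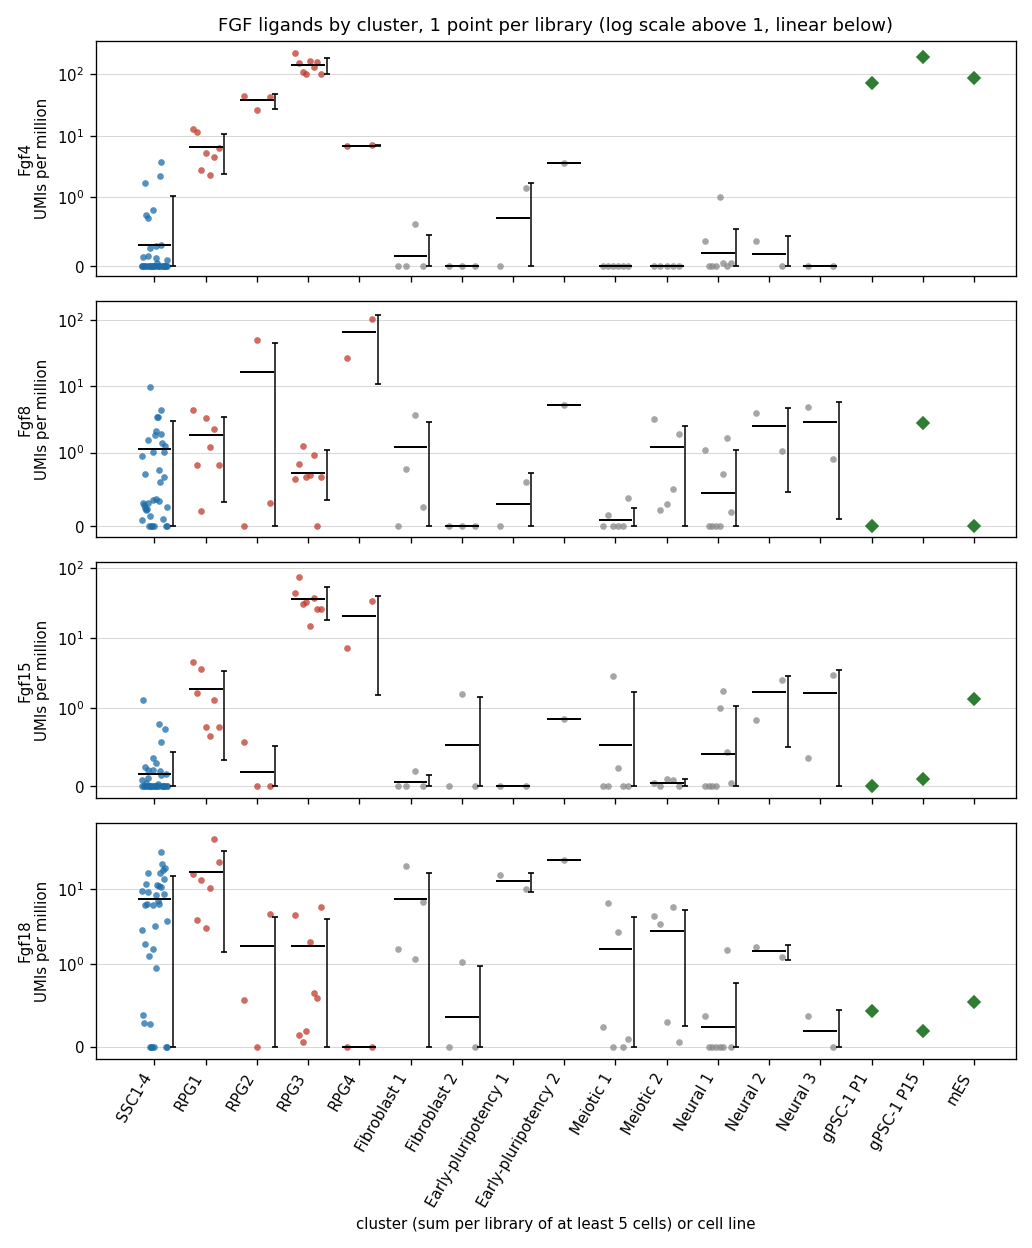
Levels of the 4 ligands in CPM (y axis, logarithmic above 1 and linear below) by cluster and line (x axis). Each circle is 1 library, the horizontal line is the mean, the bar beside it is ± 1 SD cut at 0, and each diamond is a line with 1 library. Fgf4 peaked in RPG3 at 141 CPM, Fgf15 in RPG3 at 36 CPM and Fgf8 in RPG4 at 64.7 CPM, whereas Fgf18 was highest outside RPG2 to RPG4.

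The small amount of Fgf4 in SSC1-4 was uneven between libraries. In the 10 SSC1-4 libraries that also held RPG cells it was 0.956 ± 1.22 CPM (SD), and in the 26 that held none it was 0.0639 ± 0.174 CPM, with 20 of the 26 at 0. Only 2 libraries held SSC1-4 and RPG1 in sums of at least 5 cells. There, Fgf4 was 2.19 CPM in SSC1-4 and 2.35 in RPG1 of day 20 replicate 8, and 3.68 and 4.55 CPM in day 23 replicate 1. With the library as a block the log2 fold change of Fgf4 in RPG1 was 0.22 and its adjusted p = 0.998 (edgeR). RPG1 was slightly higher in both libraries, and with 2 libraries this fit cannot show that a difference is absent. In the same 2 libraries RPG3 held 128 and 158 CPM, and in the 2 libraries shared with RPG2 the levels were 25.6 against 0.141 and 42.9 against 0.695 CPM. Whether free RNA, doublets or the state of the cells gave the SSC1-4 signal was not tested.

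Per cell, after every cell was thinned to 50000 UMIs, 228 of 254 RPG3 cells held an Fgf4 UMI (89.8%, 95% exact binomial interval 85.4 to 93.2%). The share was 24 of 45 in RPG2 (53.3%, 37.9 to 68.3%), 79 of 312 in RPG1 (25.3%, 20.6 to 30.5%) and 8 of 33 in RPG4 (24.2%, 11.1 to 42.3%). In SSC1-4 it was 24 of 2100 (1.14%), the level against which such shares can be read, at a median depth of 248474 UMIs per cell against 285699 in RPG3. Fgf4 was spread over most RPG3 cells: before thinning 97.7% of them held it, and the 3 cells with most UMIs gave 5.25% of all its UMIs. All intervals cover counting error only.

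**Figure D2:**
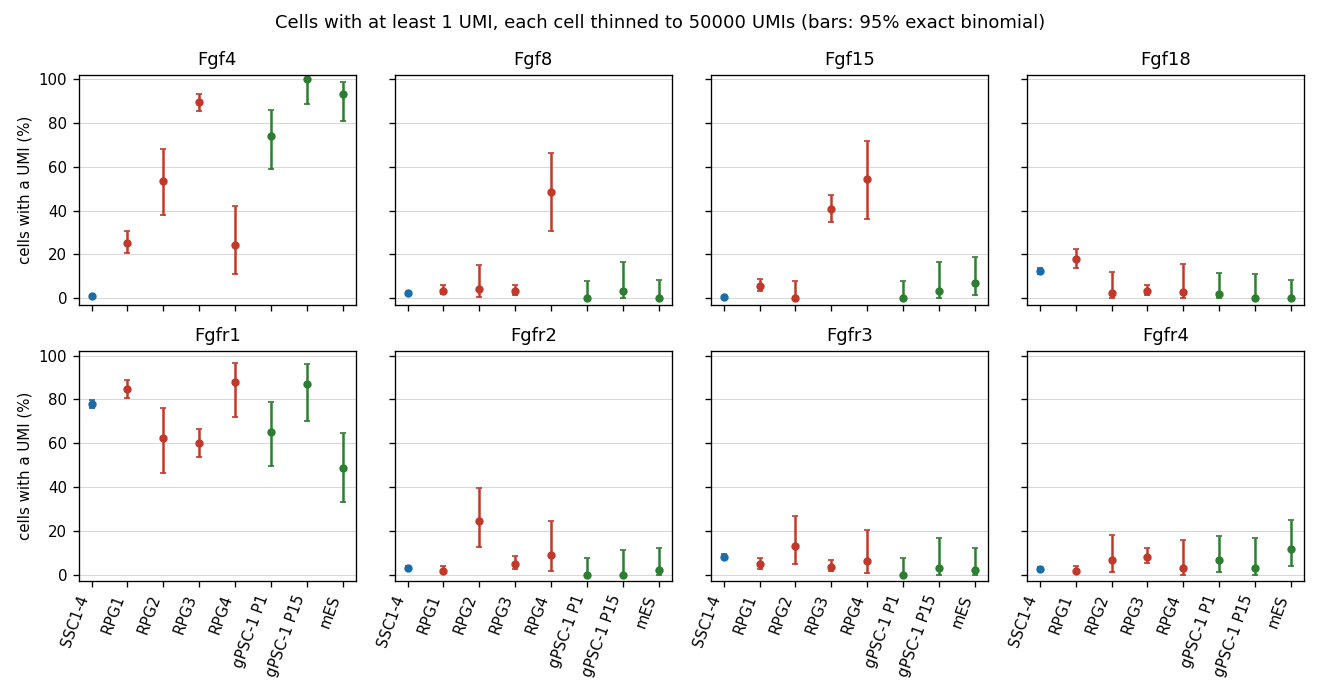
Share of cells with at least 1 UMI of each member (y axis, %) after each cell was thinned to 50000 UMIs, by cluster or line (x axis). Points are shares and bars are 95% exact binomial intervals. Fgf4 reached 89.8% of cells in RPG3, Fgf15 40.9% in RPG3 and 54.5% in RPG4, Fgf8 48.5% in RPG4, and Fgfr1 60.2% or more in SSC1-4 and in every RPG cluster.

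In the lines Fgf4 was at 70.9 CPM in gPSC-1 at passage 1 (95% exact Poisson interval 66.6 to 75.4), 191 CPM at passage 15 (183 to 200) and 84.4 CPM in mES (79.8 to 89.2). These values stood on both sides of the lowest RPG3 library (99.5 CPM), and each line is 1 library, so no difference was tested. The other 3 ligands were near 0 there: the highest was Fgf8 at 2.77 CPM in gPSC-1 at passage 15, where 1 cell held 93.3% of its UMIs.

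Fgf15, the mouse counterpart of human FGF19, exceeded 5 CPM as a mean only in RPG3 and RPG4 among the clusters of the original condition. SSC1-4 held 0.153 ± 0.287 CPM (SD, n = 36), with 20 libraries at 0. RPG1 held between 0.648 and 4.58 CPM with a median of 1.31. RPG2 held 0.566, 0 and 0 CPM. RPG3 held between 15.1 and 75.2 CPM with a median of 31.9, and RPG4 held 7.15 and 34.2 CPM. The RPG3 libraries lay above all of RPG1 and RPG2, and the ranges of RPG3 and RPG4 overlapped.
Fgf15 was higher than in SSC1-4 by 3.41 ± 0.56 in RPG1 (log2, SE, edgeR adjusted p = 1.7e-05), by 7.88 ± 0.53 in RPG3 (adjusted p = 5.1e-21) and by 6.86 ± 0.66 in RPG4 (adjusted p = 3e-13). In the fit with the library as a block Fgf15 did not pass the count filter for RPG1, and in the 2 shared libraries it was at 0.648 CPM in RPG1 and 0.199 in SSC1-4, and at 1.31 and 0.566 CPM. From RPG1 to RPG2 the Fgf15 difference was −3.41 ± 1.53 and not called (adjusted p = 0.082). It was called within batch B2 (−4.07, adjusted p = 0.041) and without day 12 replicate 2 of RPG2 (−7.73, adjusted p = 0.0499). Fgf15 rose by 7.88 ± 1.66 from RPG2 to RPG3 (adjusted p = 0.0011), and RPG4 minus RPG3 was −1.02 ± 1.2 (adjusted p = 0.62). Fgf15 was the only member called higher in RPG3 than in RPG2, whereas Fgf4 was present in both.
Fgf15 was seen in a smaller share of cells than Fgf4 in RPG3 and in a larger share in RPG4. After thinning, 104 of 254 RPG3 cells held it (40.9%, 34.8 to 47.3%) and 18 of 33 RPG4 cells (54.5%, 36.4 to 71.9%), against 12 of 2100 in SSC1-4 (0.571%). In the lines, given without a test, Fgf15 was at 0 in gPSC-1 at passage 1 (a count of 0 allows up to 0.214 CPM), at 0.0923 CPM at passage 15 and at 1.35 CPM in mES.

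Fgf8, a ligand of gastrulation and brain patterning, was highest in RPG4. It was at 26.6 and 103 CPM in the 2 RPG4 libraries, and between 0 and 1.26 CPM in the 8 RPG3 libraries. RPG1 held between 0.208 and 4.44 CPM and SSC1-4 between 0 and 9.83 CPM. No RPG3, RPG1 or SSC1-4 library reached the lower of the RPG4 values.
The log2 fold change was 5.98 ± 0.69 (SE) for RPG4 against SSC1-4 (edgeR adjusted p = 7.4e-11) and 6.23 ± 1.11 for RPG4 against RPG3 (adjusted p = 4.6e-05). DESeq2 gave Fgf8 no adjusted p in the step from RPG3 to RPG4. Of 33 RPG4 cells 16 held Fgf8 after thinning (48.5%, 30.8 to 66.5%), against 8 of 254 in RPG3 (3.15%) and 49 of 2100 in SSC1-4 (2.33%). Before thinning, the 3 RPG4 cells with most UMIs gave 44.7% of all Fgf8 UMIs in RPG4.
RPG2 was called for Fgf8 too, by 4.24 ± 0.68 against SSC1-4 (adjusted p = 4.3e-07), but on 1 library: its values were 0, 49.5 and 0.312 CPM, and 3 cells held 96.7% of the UMIs. Without that library, day 14 replicate 5, the log2 fold change was −2.23 (adjusted p = 0.27). The calls of Fgf8 in RPG2 against RPG1 (3.38 ± 1.03, adjusted p = 0.0083) and in RPG3 against RPG2 (−4.49 ± 1.03, adjusted p = 0.0025) rested on the same library and turned to −3.08 and 1.95 without it, with adjusted p-values of 0.17 and 0.53.

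Fgf18, a ligand of bone and lung growth, had its highest means in Early-pluripotency 2 (24.9 CPM in 1 library), SSC4, RPG1, Early-pluripotency 1 (12.8 ± 3.71 CPM, SD, n = 2) and SSC3, with overlapping ranges between neighbours in this order where there was more than 1 library. Its mean level was 1.39 ± 2.54 CPM in SSC1 (SD, n = 28), 4.44 ± 4.90 in SSC2 (n = 23), 12 ± 7.58 in SSC3 (n = 18) and 20.5 ± 13.6 in SSC4 (n = 16). In the 9 libraries that held both SSC1 and SSC4, SSC4 was higher in 9 of 9, with means of 16.1 against 1.01 CPM. After thinning, 23 of 665 SSC1 cells (3.46%) and 100 of 448 SSC4 cells (22.3%) held it. The 4 SSC clusters were drawn on the same cells, so this is a description.
RPG1 still held between 3.03 and 47.8 CPM of Fgf18, with a median of 13.5, and did not differ past the threshold from SSC1-4 as a whole (log2 1.16 ± 0.63, edgeR adjusted p = 0.32). RPG2 held 0.566, 0 and 4.68 CPM and RPG3 between 0.0572 and 5.84 CPM with a median of 0.615. RPG4 held no Fgf18 UMI in either library sum, which cover 21 cells, and 1 of all 33 RPG4 cells held one after thinning (3.03%). RPG3 was lower than SSC1-4 by −1.97 ± 0.79 (adjusted p = 0.029), a call that was lost within each batch at a similar size (−1.77, adjusted p = 0.097 in B1 and −2.28, adjusted p = 0.28 in B2) and without any of 5 RPG3 libraries (0.052 to 0.060). With 3 UMIs over both RPG4 libraries as the limit, 0.401 CPM, Fgf18 was at least 18.4-fold lower in RPG4 than in SSC1-4. The fitted log2 fold change was −9.68 (edgeR adjusted p = 0.026). Without either of the RPG4 libraries it was −9.70, resting on the remaining library, and was not called.

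Among the receptors, Fgfr1 was present throughout. Every sum of every cluster held it, with means from 42.0 CPM in Meiotic 2 to 191 CPM in Early-pluripotency 2, and 77.9% of 2100 SSC1-4 cells held a UMI after thinning. SSC1-4 held between 6.26 and 115 CPM with a median of 65.6. The lowest of these, from day 16 replicate 1, rested on 5 UMIs in 8 cells.
RPG1 held between 67.8 and 93.0 CPM of Fgfr1, RPG2 held 140, 44.3 and 60.8 CPM, RPG3 between 24.8 and 82.8 CPM with a median of 41.6, and RPG4 69.9 and 98.7 CPM. All ranges overlapped that of SSC1-4, and no RPG cluster passed the threshold for Fgfr1 (edgeR adjusted p from 0.12 to 0.39). The difference in RPG3 was −0.34 ± 0.19 (log2, SE, adjusted p = 0.12). The highest RPG3 value came from day 12 replicate 2, and without that library it was −0.50 (adjusted p = 0.027). With sums of at least 10 cells it was −0.56 (adjusted p = 0.0024), within batch B1 −0.70 (adjusted p = 0.014), and with the library as a block −1.14 (adjusted p = 0.043). After thinning, 60.2% of RPG3 cells (53.9 to 66.3%) and 77.9% of SSC1-4 cells (76.0 to 79.6%) held Fgfr1.

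Fgfr2 was highest in RPG2 and Neural 3, below Fgfr1 in both, and the ranges of these clusters overlapped. The 3 RPG2 libraries held 40.2, 18.9 and 5.46 CPM, and all lay above the highest of 36 SSC1-4 libraries (4.80 CPM) and of 7 RPG1 libraries (1.82 CPM). RPG3 held between 0 and 4.53 CPM with a median of 0.690, and RPG4 held 6.35 and 0.604 CPM.
Against SSC1-4 Fgfr2 was higher in RPG2 by 4.38 ± 0.68 (log2, SE, edgeR adjusted p = 1.9e-07). In the 2 libraries that held both, RPG2 and SSC1-4 were at 18.9 and 0.703 CPM and at 5.46 and 0.374 CPM. It rose by 5.17 ± 1.11 from RPG1 to RPG2 (adjusted p = 0.00019) and fell by −3.80 ± 1.02 from RPG2 to RPG3 (adjusted p = 0.013), the latter not past the threshold without day 12 replicate 2 (−3.12, adjusted p = 0.12) or within batch B2 (−3.97, adjusted p = 0.14).
Of 45 RPG2 cells 11 held Fgfr2 after thinning (24.4%, 12.9 to 39.5%), against 65 of 2100 in SSC1-4 (3.1%), and 1 cell gave 47.5% of its RPG2 UMIs. The Fgfr2 entry of the annotation used here spans 2960900 bases on chromosome 7 and runs across other genes, so overlapping genes could share its reads if the authors counted with the same entry.

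Fgfr3 and Fgfr4 had means below 8 CPM in all clusters of the original condition. Fgfr3 was at 2.83 ± 2.22 CPM in SSC1-4 (SD, n = 36), between 1.39 and 3.48 CPM in RPG1, at 12.2, 2.37 and 4.21 CPM in RPG2, between 0 and 2.02 CPM in RPG3 and at 0 and 0.201 CPM in RPG4. It was lower in RPG4 than in SSC1-4 by −4.45 ± 1.58 (log2, SE, edgeR adjusted p = 0.025). Without day 20 replicate 1 or replicate 2 of RPG4 the difference was −3.83 or −8.34, resting on the remaining library, and was not called.
Fgfr4 was at 0.557 ± 0.562 CPM in SSC1-4, and it was higher in RPG2 (2.90 ± 0.80, adjusted p = 0.0025) and RPG3 (2.32 ± 0.59, adjusted p = 0.0006). Its RPG2 values were 8.49, 0 and 3.74 CPM, and without the first of these libraries, day 12 replicate 2, the adjusted p was 0.14. Its RPG3 values fell into 5 libraries between 2.96 and 4.88 CPM and 3 between 0 and 0.0958 CPM, and in batch B2 alone the adjusted p was 0.25. After thinning, 21 of 254 RPG3 cells (8.27%, 5.19 to 12.4%) held Fgfr4, against 54 of 2100 in SSC1-4 (2.57%, 1.94 to 3.34%). In mES it was at 4.86 CPM (3.80 to 6.12) and in 5 of 43 cells (11.6%).

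**Figure D3:**
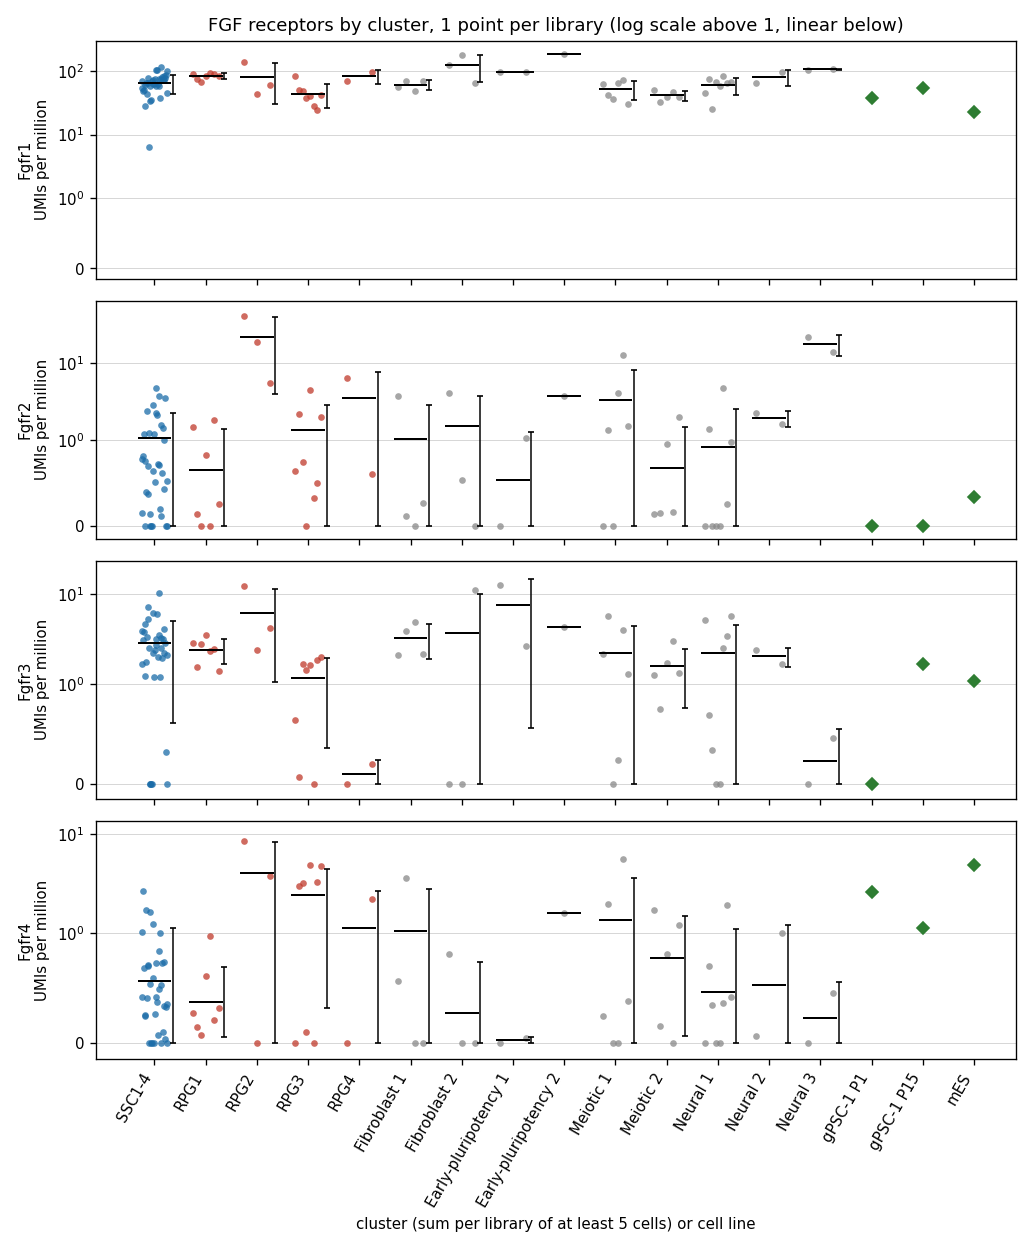
Levels of the 4 receptors in CPM (y axis, logarithmic above 1 and linear below) by cluster and line (x axis), drawn like the ligands: circles are libraries, lines are means, bars are ± 1 SD cut at 0 and diamonds are lines. Fgfr1 was found in every sum, and the RPG2 libraries (5.46 to 40.2 CPM) lay above all SSC1-4 libraries for Fgfr2.

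Cells that held a pair of members were counted after thinning, as a description. Of 228 RPG3 cells with Fgf4, 96 also held Fgf15 (42.1%), and of 26 cells without Fgf4, 8 did (30.8%). Fgfr1 was seen in 59.2% of RPG3 cells with Fgf4 and in 69.2% of those without. In RPG2, 3 of 24 cells with Fgf4 held Fgfr2 (12.5%), and 8 of 21 cells without it did (38.1%). In RPG4, Fgf8 and Fgf15 met in 8 of 33 cells.

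In the failed branches most calls fell in Fibroblast 2 and Neural 3. No member passed the edgeR threshold in Fibroblast 1, Early-pluripotency 1, Meiotic 1, Meiotic 2 or Neural 2 against SSC1-4, where 0.804%, 0.102%, 3.52%, 2.14% and 0.579% of 19529 genes did. At an unadjusted p below 0.05 the counts were 0, 0, 4, 2 and 1 of 8, and DESeq2 called 0 members in each of these 5 comparisons. The share of all genes at that unadjusted threshold was not counted, so these counts have nothing to be read against.
Fgf4 was at 0 in all 6 Meiotic 1, all 5 Meiotic 2, both Neural 3 and all 3 Fibroblast 2 libraries. In Neural 1 only Fgf18 was called, and lower: −4.46 ± 1.04 (log2, SE, adjusted p = 0.0038, with 6.11% of all genes called, 2.63% higher and 3.49% lower), from 0 UMIs in 6 of 8 libraries and 1.52 CPM in the highest. The call was lost at a similar size with at least 10 cells per sum (−4.33, adjusted p = 0.063) and with sums per batch and day (−4.15, adjusted p = 0.0503). Early-pluripotency 2 had 1 library and no test. It held Fgf18 at 24.9 CPM, Fgfr1 at 191 CPM and Fgf4 at 3.65 CPM, so that Fgf18 stood above and Fgf4 below the level of every RPG2 and RPG3 library. Both lay within the RPG1 ranges, 3.03 to 47.8 CPM for Fgf18 and 2.35 to 12.7 CPM for Fgf4. Before thinning, 58.4% of Early-pluripotency 2 cells and 60.1% of RPG1 cells held Fgf4.

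Fibroblast 2 and Neural 3 differed in 3 members each, where 39.0% (19.1% higher, 19.9% lower) and 30.4% (15.8% higher, 14.6% lower) of all genes were called. In Fibroblast 2, Fgfr1 was at 128, 181 and 65.5 CPM and higher by 1.06 ± 0.26 (log2, SE, adjusted p = 0.0006), or not past the threshold without day 10 replicate 1 (0.70, adjusted p = 0.091). Fgf8 was at 0 in all 3 libraries. A limit of 3 UMIs, 0.374 CPM, lay below the Fgf8 mean of SSC1-4 (1.11 CPM) but above its median (0.361 CPM). Fgf18 was at 0, 1.06 and 0 CPM. Fgf8 and Fgf18 were both called lower (adjusted p = 0.040 and 0.037). Fgf8 lost the call without any 1 of the 3 libraries (adjusted p from 0.10 to 0.14), and Fgf18 without day 27 replicate 5 or day 8 replicate 1 (0.13 and 0.17). Fgfr3 was at 0, 0 and 11.1 CPM and not called (0.27, adjusted p = 0.82), and without the library that held it, day 27 replicate 5, it was called lower against 2 libraries at 0 (adjusted p = 0.013). The 7 fibroblast markers summed to 2211 to 4688 CPM there, and feeder cells and SSC-derived cells cannot be told apart in this cluster.
In Neural 3, 2 libraries of day 27, Fgfr2 was at 21.5 and 13.9 CPM and higher by 4.2 ± 0.88 (adjusted p = 8.8e-05), Fgfr1 was at 104 and 109 CPM and higher by 0.92 ± 0.31 (adjusted p = 0.017), and Fgf15 was at 0.368 and 2.96 CPM and higher by 3.51 ± 1.35 (adjusted p = 0.039). Fgf18 (−4.83, adjusted p = 0.063) and Fgfr3 (−3.67, adjusted p = 0.080) were not called by edgeR. DESeq2 called both lower (−4.99, adjusted p = 0.0073, and −3.82, adjusted p = 0.011). With sums of at least 10 cells edgeR called Fgfr3 lower too (−3.85, adjusted p = 0.024). Without either library only Fgfr2 was called. SSC markers summed to 131 to 290 CPM in Neural 3, fibroblast markers to 971 to 988 CPM and 4 Sertoli cell markers to 235 to 311 CPM, against 2.37 to 60.7 CPM of the Sertoli markers in SSC1-4. Their part in the result was not tested. Neural 4 had 29 cells in 20 libraries and no sum of 5 cells. Its pooled Fgf4 level of 9.48 CPM came to 96.0% from 1 cell.

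The members were also set against time in SSC1-4. In a fit of the 36 SSC1-4 sums against the day of culture, 0 of 8 members passed, while 4.00% of 17882 genes did (edgeR). At an unadjusted p below 0.05 there was 1 member, Fgfr1, with a log2 slope of 0.03 ± 0.01 per day (adjusted p = 0.30). DESeq2 called 0 members as well.

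Fgf4 and Fgf15 are neighbours, and both rose to RPG3. Their starts lie 35.1 kb apart on chromosome 7, and Fgf15 spans chr7:144896531-144900953. The annotation lists 16 genes, 7 of them protein coding, with a start within 300 kb of the Fgf4 start. In RPG3 against SSC1-4, 8 of the 16 were tested and 6 passed, 4 higher and 2 lower, beside 58.7% of all genes called. Fgf4 and Fgf15 themselves are among the 4. Ccnd1, the cyclin D1 gene 78.5 kb away, rose from 47.5 to 184 CPM (2.18 ± 0.21, log2, SE, adjusted p = 6e-14). Gm26793 rose by 6.08 ± 0.88, but it overlaps Fgf15 on the other strand, and since the sources used here do not say that strand was used in counting, its reads cannot be told apart from those of Fgf15.
Fgf3, the ligand on the other side of Fgf4 at 23.3 kb, was at 2.36 CPM in SSC1-4 and 4.40 CPM in RPG3 and did not pass (1.11 ± 0.56, adjusted p = 0.084). Ano1 fell (−2.19 ± 0.71, adjusted p = 0.0064). The antisense RNA Faddos was called lower (adjusted p = 0.024) from 0.151 CPM in SSC1-4 to 0 in RPG3, and it overlaps Fadd on the other strand, so that their reads cannot be told apart either. Fadd did not pass (0.33 ± 0.28, adjusted p = 0.31). In RPG4 the log2 difference from SSC1-4 was 6.86 for Fgf15 and 4.81 for Fgf4.

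**Figure D4:**
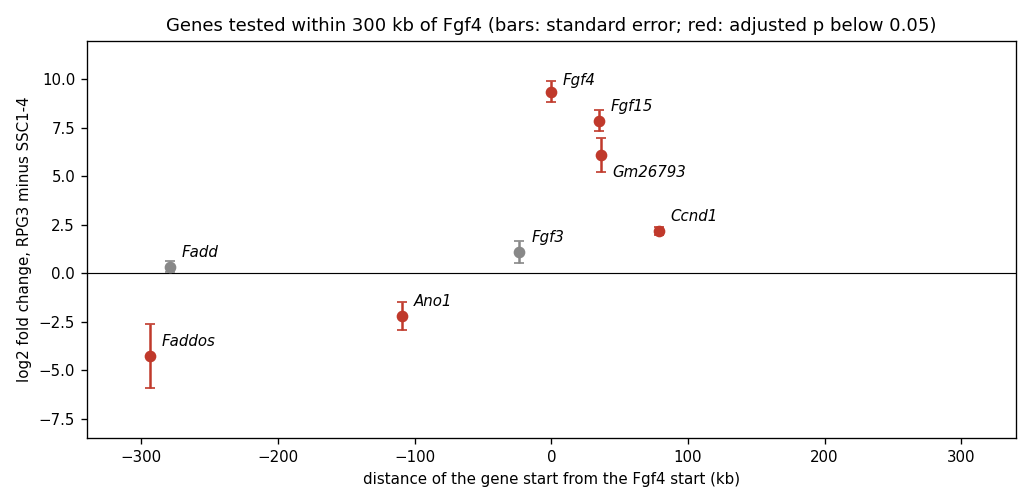
Log2 fold change of RPG3 minus SSC1-4 (y axis) for the 8 tested genes within 300 kb of Fgf4, by the distance of each start from the Fgf4 start (x axis, kb). Bars are standard errors and red points have an adjusted p below 0.05. Fgf4 (9.37) and Fgf15 (7.88) stood above Ccnd1 (2.18), and Fgf3 at 23.3 kb on the other side was not called.

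Over 17 clusters with a sum, Fgf4 and Fgf15 correlated with r = 0.70 (Pearson, mean log2(CPM + 1)), Fgf4 and Fgfr4 with r = 0.74, and Fgf18 with Fgfr3 with r = 0.66, while Fgf15 and Fgfr3 gave r = −0.54. These are descriptions over clusters that share libraries. Among 14700 genes, those most like Fgf4 were Gm14409, Gtsf1l and Pigp (r = 0.99, 0.99 and 0.98). Those most like Fgf15 were Otx2, a transcription factor of the epiblast and forebrain, X4930526L06Rik and Fam57b (r = 0.98, 0.93 and 0.93), and Otx2 reached 203 CPM in RPG3. Fgf8 was closest to Npy, Nkx1.2 and Foxj1 (r = 0.93, 0.90 and 0.90), all highest in RPG4, and Fgf18 to X2810459M11Rik, Lpo and Tmem252 (r = 0.93, 0.93 and 0.92).
Fgfr1 was closest to Gtf3c1, Rai14 and Galnt7 (r = 0.90, 0.89 and 0.89), Fgfr2 to Shf, Zxdb and Sh3rf1 (r = 0.90, 0.89 and 0.87) and Fgfr3 to Fam228b, Wnk4 and Parp12 (r = 0.89, 0.88 and 0.86). Fgfr4, which never reached 5 CPM as a mean, was closest to Apom, Mc1r and Esrrb (r = 0.90, 0.88 and 0.88), all 3 highest in RPG2.

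The other ligands, read from a list written by hand, gave 3 higher and 1 lower of 10 tested (14 listed) in RPG3 against SSC1-4, with a median log2 fold change of 1.02 beside −0.19 over all genes. This and the next 4 list counts for RPG3 stand beside 58.7% of all genes called, 27% higher and 31.7% lower, and were not tested against it. Fgf5, a ligand of the primed epiblast, rose from 0.36 ± 0.571 to 30.5 ± 19.2 CPM (SD, n = 36 and 8, log2 6.42 ± 0.50 SE, edgeR adjusted p = 9.4e-17), and its log2 difference from SSC1-4 was 2.56, 4.34 and 8.89 in RPG1, RPG2 and RPG4. Fgf17 (3.94 ± 0.76) and Fgf21 (2.96 ± 0.89) rose from below 1 CPM. Fgf9, a ligand of the gonad, fell from 10.3 ± 8.73 to 0.955 ± 0.791 CPM (−3.18 ± 0.58, adjusted p = 3e-06). Of the 4 intracellular FGF homologous factors, Fgf11 rose (3.21 ± 0.85) in RPG3, and Fgf11 and Fgf14 rose in RPG4.
Of 10 co-receptor and receptor-like genes, 2 were higher and 4 lower in RPG3, with a median of −0.72. The heparan sulphate proteoglycans Gpc3 (10.0 ± 4.32 to 86.6 ± 26.1 CPM) and Gpc4 (11.9 ± 7.29 to 34.3 ± 10.8 CPM) rose, and Sdc4 fell from 672 ± 105 to 198 ± 55.7 CPM. The klotho genes Kl and Klb, which encode co-receptors of endocrine FGFs, the class that holds Fgf15, fell by −2.53 ± 1.01 and −2.73 ± 0.69 from levels of 1.07 and 2.82 CPM, and the receptor-like Fgfrl1 by −1.09 ± 0.41. Fgf15 and the klotho genes thus moved in opposite directions in RPG3.

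The signal relay gave 10 higher and 1 lower of 20 genes in RPG3, with a median of 0.35. Gab1, a docking protein, rose from 16.7 ± 6.68 to 122 ± 26.1 CPM (3.08 ± 0.16, adjusted p = 2.4e-26) while its relative Gab2 fell (−4.97 ± 1.05). Grb2, Shc1, Plcg1, Hras, Nras, Braf, Map2k1 and Mapk3 rose by 0.32 to 0.86 on the log2 scale.
Feedback inhibitors and transcriptional targets gave 9 higher and 1 lower of 14, with a median of 1.14. Etv1 went from 0.0718 ± 0.128 to 43.0 ± 19.1 CPM (9.12 ± 0.41, adjusted p = 3e-30), the largest change in this list. Etv5 rose from 71.3 ± 43.1 to 232 ± 40.4 CPM, Spry2 from 13.7 ± 7.0 to 53.2 ± 14.1 CPM and Spry4 from 19.6 ± 12.9 to 52.7 ± 28.7 CPM. Dusp4, Spred2, Spry1, Etv4 and Flrt3 rose as well, and Dusp5 fell (−1.68 ± 0.36). Dusp6, the ERK phosphatase, did not pass (−0.12 ± 0.30, adjusted p = 0.76) and was at 115 ± 68.0 CPM in SSC1-4 already.
In RPG1, 6 of the 14 targets were called and all 6 were higher, beside 4.55% of all genes: Etv1, Dusp4, Spry4, Etv5, Spry1 and Il17rd, by 0.79 to 3.92. Il17rd, which was not called in RPG3, is named after its value was seen. With the library as a block 4 of 13857 genes in all passed in RPG1, so that at most 4 of these 6 calls could remain. RPG2 had 8 higher and 0 lower of the 14 (39.3% of all genes called, 19.2% higher), and RPG4 5 higher and 1 lower (30.5% called, 14.4% higher).

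In the cells treated with 5C or DMSO, classes were those the authors predicted by comparison with the clusters. These cells were profiled by scTrio-seq2, in which RNA is split from the nucleus, unlike the original condition. In RPG3 Fgf4 was at 115 and 110 CPM in 2 DMSO samples and between 40.1 and 268 CPM, with a median of 85.1, in 6 samples with 5C, so that the DMSO values lay inside the 5C range. No member was called in RPG3 between 5C and DMSO, of 4 tested, while 15.7% of 11429 genes were (edgeR). The differences were −0.40 ± 0.60 for Fgf4 (log2, 5C minus DMSO, adjusted p = 0.72), −1.71 ± 1.28 for Fgf15 (0.42), 0.56 ± 0.46 for Fgfr1 (0.46) and 5.93 ± 2.44 for Fgfr2 (0.12), and 1 of 4 had an unadjusted p below 0.05. DESeq2 called 0 members too. Fgf15 was at 6.19 and 14.1 CPM with DMSO and at 17.7, 3.07, 0.509, 0, 0 and 0 CPM with 5C. Without 5C sample 5, which held the 17.7, its difference was −4.39 (adjusted p = 0.020).
All 5C samples came from days 12 to 16 and both DMSO samples with RPG sums from day 20, so treatment and time cannot be told apart. In RPG1 only Fgfr1 passed the count filter, and it was not called (−0.23 ± 0.40, adjusted p = 0.78, with 5.77% of 9351 genes called, 0 members with an unadjusted p below 0.05 and 0 by DESeq2).

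**Figure D5:**
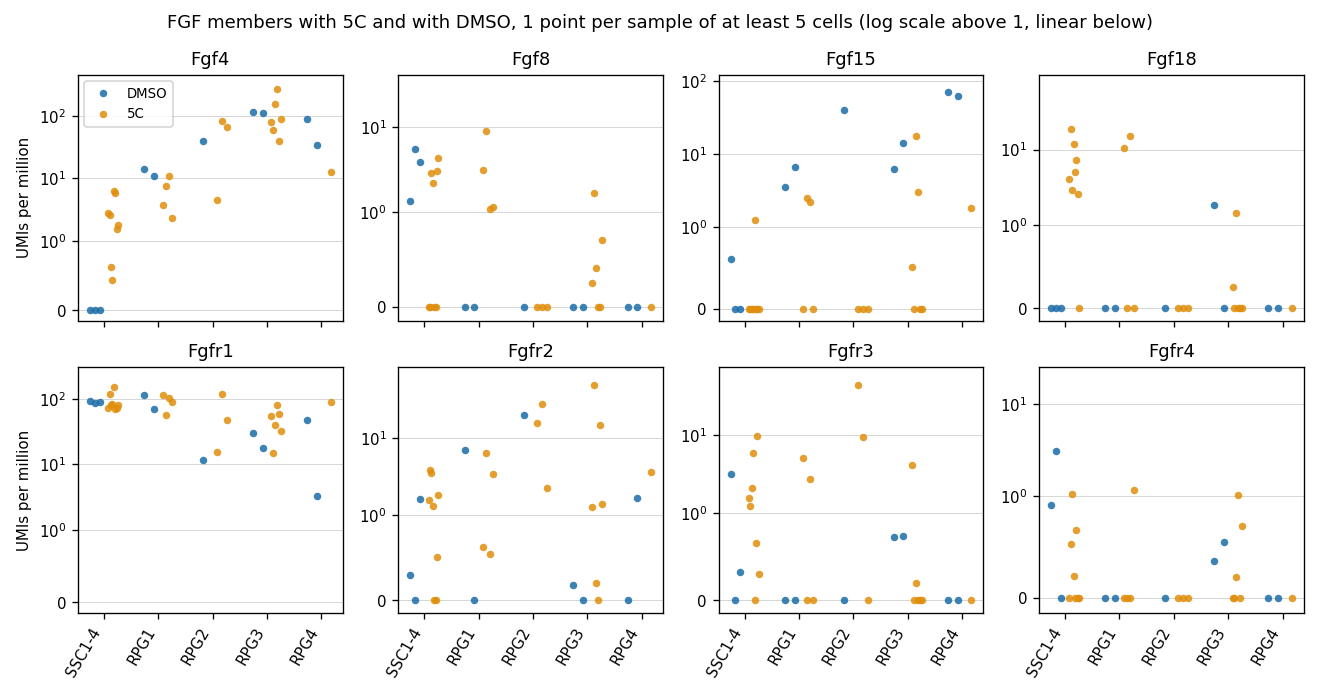
Levels of the 8 members in CPM (y axis, logarithmic above 1 and linear below) in the predicted classes (x axis), 1 point per sample of at least 5 cells, DMSO in blue and 5C in orange. Fgf4 in RPG3 overlapped between the treatments (110 to 115 CPM with DMSO, 40.1 to 268 CPM with 5C), and Fgf18 in SSC1-4 was at 0 in the 3 DMSO samples and above 0 in 7 of the 8 with 5C.

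In SSC1-4, 1 of 4 tested members was called, where 21.5% of 12293 genes were (10.9% higher, 10.6% lower). Fgf18 was at 0 in the DMSO samples 3, 4 and 5, and at 18.7, 11.9, 7.27, 5.01, 4.11, 2.91, 2.55 and 0 CPM in the 8 samples with 5C. With 3 UMIs over the 3 DMSO sums as the limit (0.237 CPM), it was at least 27.6-fold higher with 5C (adjusted p = 0.0026). Fgf4 did not pass the count filter, but it was at 0 in all 3 DMSO samples and between 0.434 and 6.26 CPM in all 8 with 5C. These DMSO samples held no RPG sum of 5 cells, whereas 7 of the 8 with 5C did. The SSC classes differed too: 122 of the 154 DMSO cells were SSC1, which held the least Fgf18 of the 4 SSC clusters in the original condition, and 202 of the 350 cells with 5C. Within SSC1 alone, Fgf18 was at 0 in the 3 DMSO samples and between 0 and 9.95 CPM with 5C, with 2 of 8 at 0. Days were 20 and 24 for these DMSO samples, with 8 cells of day 0 in sample 5.
Of the 14 feedback and target genes in RPG3, 7 were called and all 7 were higher with 5C, beside 6.52% of all genes higher and 9.23% lower (median log2 1.78 over the list, 0.08 over all genes): Spry2 (72.7 ± 23.3 CPM with 5C, SD, n = 6, against 8.21 ± 2.29 with DMSO, n = 2), Il17rd, Dusp5, Spred1, Etv1, Etv4 and Spry4. The 5 SSC markers summed to 131 to 432 CPM in RPG3 with 5C and to 54.8 to 69.0 CPM with DMSO, and their part in the result was not tested. Fgf5 was at 11.7 and 12 CPM with DMSO and between 0 and 1.43 CPM with 5C (−5.19 ± 1.10, adjusted p = 0.0036). In SSC1-4, 12 of the 14 were tested and 11 were called, all 11 higher with 5C, beside 10.9% of all genes higher and 10.6% lower. The median log2 was 2.27 over the list and 0.02 over all genes, and Spry4 (5.98 ± 0.53) and Dusp6 (3.72 ± 0.33) were among the 11. The mix of SSC clusters differed between the treatments here as well, and its part was not tested. The 7 fibroblast markers summed to 35.3 to 58.3 CPM in the 3 DMSO sums of SSC1-4 and to 6.11 to 33.1 CPM in the 8 with 5C, without overlap, and their part in the result was not tested. Treatment and time cannot be told apart here either. These genes were named after their values were seen.
The other classes had too few samples for a test. RPG2 held Fgf4 at 4.59, 83.5 and 67.7 CPM with 5C and 39.6 CPM with DMSO. Fgf15 was at 0 in these 3 samples with 5C but at 39.6 CPM, from 10 UMIs in 5 cells, in the DMSO sample of RPG2, above both DMSO samples of RPG3 and unlike RPG2 of the original condition. Fgfr3 was at 42.7, 9.28 and 0 CPM in RPG2 with 5C, from 65, 7 and 0 UMIs, and at 1.55 and 28.5 CPM in 2 Neural 1 sums of 5 cells with DMSO. RPG4 held Fgf4 at 89.2 and 34.8 CPM in the DMSO samples and 12.9 CPM with 5C, above both RPG4 libraries of the original condition. The 6 pluripotency genes summed to 1724 and 1910 CPM in RPG4 with DMSO and to 1717 CPM with 5C. In RPG4 of the original condition they summed to 945 to 1165 CPM. RPG4 held Fgf15 at 71.3 and 63.0 CPM with DMSO and 1.84 CPM with 5C, in sums of 5 or 6 cells, and 5 SSC markers summed to 17.8 and 21.6 CPM in these DMSO sums and to 734 CPM in that with 5C. Of these markers Gfra1 was at 0 in all 3 sums, and Zbtb16 and Dmrt1 in both with DMSO. There was no Fgf8 UMI in any of the 3, whereas both RPG4 libraries of the original condition held Fgf8.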

How the data were processed

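Single-cell RNA was measured with a modified STRT-seq protocol in the original condition and the lines. Cells with 5C or DMSO were profiled by scTrio-seq2, in which RNA was taken from the supernatant and the nucleus was kept for DNA methylation. Levels in these cells and in the original condition thus came from different protocols, and the part of this in their differences was not tested. Per the labels and the study's methods, the authors assigned reads by barcode and UMI, aligned them to mm10 with STAR 2.7.2b, counted genes with featureCounts 2.0.0 (strand setting and annotation not given in the sources used here) and deposited UMI counts per gene and cell. The authors also deposited a table of other values, the cluster, batch and predicted class of each cell, which was used as given. Cells kept in the authors' filtered set were used, 5553 in all, and no doublet caller was run.

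Counts were summed per library and cluster for at least 5 cells and tested with edgeR 4.0.16 (TMM, filterByExpr, robust quasi-likelihood fit, R 4.3.3), with Benjamini-Hochberg adjustment over all genes tested and calls at an adjusted p below 0.05. The SSC and RPG clusters shared 1 fit, and the failed branches another with SSC1-4. DESeq2 1.42.0, other size factors, filters, batch and library terms and left-out libraries were alternatives. Sums per batch and day were added after seeing the data. For shares of cells, each cell was thinned to 50000 UMIs, and shallower cells were left out (165 of SSC1-4, 21 of RPG1, 2 of RPG2, 7 of RPG3, none of RPG4). A count of 0 was read as at most 3 UMIs. Intervals are 95% exact intervals for counting error only.

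Members and lists were chosen with earlier results of these data known. Genes beside the members were named by these rules: the 3 genes with the most similar pattern, list genes called in RPG3 against SSC1-4, and genes within 300 kb of Fgf4. Fgf14, Dusp6, Il17rd and the targets named in the cells with 5C or DMSO fall outside these rules and were named after their values were seen. The labels do not say that libraries were separate cultures, so p-values measure the spread between libraries, which may be technical. Promoter sequences came from RefSeq (GRCm38.p6) and gene positions from GENCODE vM21, both of the mm10 build. Methylomes and the tables that repeat the counts of the single libraries were not used here.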

Additional observations from a re-analysis of the deposited data

Results flagged for a closer look

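Of 19 groups of 4 to 10 libraries with a mean of at least 5 CPM, 2 held a library far from the others, and chance alone gives about 1 in 20. Fgfr1 in RPG3 of the original condition was at 82.8 CPM in day 12 replicate 2, where the next library held 49.8 CPM and the lowest 24.8 CPM (n = 8). Fgfr2 in RPG3 with 5C was at 48.9 CPM in sample 3, from 29 UMIs in 7 cells, where the next sample held 14.8 CPM and the lowest 0 CPM (n = 6). No explanation of either value was tested.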

How the results depend on the processing

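The number of members called stayed within 1.5 times the value given under most alternatives. It did not under the following. With the library as a block it was 0 in RPG1 and 2 in RPG2 against SSC1-4 (2 and 4 in the fit reported), where Fgf15 was not tested in RPG1. Within batch B2 it was 2 in RPG3 against SSC1-4 (4), 2 in RPG2 against RPG1 (4) and 1 in RPG3 against RPG2 (3). Of the members called in RPG2 against RPG1 only Fgfr2 stayed within batch B2, and Fgf15 was added as lower. Within batch B1 the count was 1 in RPG4 against RPG3 (2), where DESeq2 gave 0. With at least 10 cells per sum it was 3 in RPG4 (5), 1 in Meiotic 2 (0, with Fgfr1 added) and 0 in Neural 1 (1). With sums per batch and day, chosen after seeing the data, it was 0 in Neural 1 (1) and 1 in Neural 3 (3). With no filter beyond 1 UMI it was 2 in SSC1-4 between 5C and DMSO (1), with Fgf4 added.

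With 1 library left out at a time the count against SSC1-4 was 3 to 4 (RPG2), 3 to 5 (RPG3) and 3 to 3 (RPG4), where leaving out each RPG4 library (day 20 replicates 1 and 2) gave 3. It was 2 to 2 in RPG1, 3 to 4 in RPG2 against RPG1 and 2 to 4 in RPG3 against RPG2. It was 1 to 2 in RPG4 against RPG3 (1 without either RPG4 library or without RPG3 of day 12 replicate 2, day 18 replicate 3, day 20 replicate 2 or day 23 replicate 1). It was 1 to 2 in Fibroblast 2 (1 without day 10 replicate 1 or day 8 replicate 1), 1 to 1 in Neural 1 and in Neural 3 (either library), 0 to 1 in RPG3 between 5C and DMSO (1 without 5C sample 5), 1 to 1 in SSC1-4 between them, and 0 in the others. Directions that reversed were those of Fgf8 without RPG2 of day 14 replicate 5 and of Fgfr3 in Fibroblast 2 without day 27 replicate 5. With 1 library left out, the log2 fold change ran from −2.23 to 4.82 for Fgf8 in RPG2 against SSC1-4, from −3.08 to 3.96 for Fgf8 in RPG2 against RPG1, from −5.07 to 1.95 for Fgf8 in RPG3 against RPG2, and from −8.35 (called, adjusted p = 0.013, 2 libraries at 0) to 0.89 for Fgfr3 in Fibroblast 2 against SSC1-4. The cause was not tested, other than that these fits hold fewer libraries.

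Without thinning, 75 pairs of member and cluster or line had a UMI in at least 10% of cells, and 48 with it. Sample numbers shared by 5C and DMSO did not pair the samples (correlations of deviations 0.073, −0.018 and −0.033 over 10261 genes), and the fit with the replicate block called 1 member in SSC1-4, as without it. No paired analysis was possible in RPG1 and RPG3 because the treatments shared 1 number there. RPG4 and RPG2 rest on 2 and 3 libraries, and members below about 1 CPM on few UMIs.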

Other observations

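Neural 4, which gave no sum of 5 cells, held 29 cells in 20 libraries at a median of 65379 UMIs per cell. Pooled over these cells, Fgfr1 was at 96.4 CPM (95% exact Poisson interval 84.9 to 109), Fgfr2 at 6.07 CPM (3.47 to 9.86), Fgfr3 at 4.55 CPM (2.35 to 7.95) and Fgf8 at 1.90 CPM (0.616 to 4.43). One cell gave 55.5% of the Fgfr1 UMIs.

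In RPG1, 16 of 79 cells with Fgf4 after thinning also held Fgf18 (20.3%), and 40 of 233 cells without Fgf4 did (17.2%).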
